A study of Homo sapiens with 12 samples.

Results

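Expression in the NFE2L1 knockout line KO1 was compared with that in the control line while both were under proteasome inhibition. The cells were A549, an established human lung carcinoma line. Both groups were given bortezomib at 200 nM for 4 h. The labels call the genotypes Control1 and NFE2L1 KO1, and each group holds 2 libraries, 4 of the 12 in the series. The other 8 libraries are the same lines given DMSO vehicle for the same time, and a line labelled NFE2L1 KO2 under either treatment. All genes with a mean level of at least 1 FPKM (assigned fragments scaled by gene length and by library total) over the 12 libraries were taken, which was 12194 of 58676. The labels do not say which part of NFE2L1 was edited, or whether a line came from 1 clone. With 1 KO1 line and 1 control line, an effect of losing NFE2L1 and a difference that arose between the lines in other ways cannot be told apart.

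NFE2L1, also known as NRF1 or TCF11, is a CNC-family transcription factor anchored in the membrane of the endoplasmic reticulum. It is made all the time and is normally pulled into the cytosol by the VCP machinery and destroyed by the proteasome. When the proteasome is blocked, a fraction that has been stripped of its sugars by NGLY1 and cut by DDI2 escapes. It then enters the nucleus, pairs with small MAF proteins and binds antioxidant response elements near proteasome subunit genes. This restoring response is known as the bounce-back. Bortezomib, a boronic acid drug used against myeloma, blocks the proteasome's chymotrypsin-like site and is a common way to set it off.

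The 4 libraries held 13211608 to 18873518 assigned reads. Replicate 2 here means the library with the suffix R2 in each line. Replicate 1 means the R1 library of KO1 and the control library that has no number. The share of mitochondrial reads was 5.44% to 6.80% in the 6 replicate 1 libraries of the series and 12.3% to 19.3% in the 6 replicate 2 libraries, so each KO1 library was compared with the control library of its own replicate. Nothing in the labels says that replicates came from separate cultures, and the p-values then measure only the spread between these libraries. All 10 A549 markers passed the level filter. Markers of other cells were low: the summed level was 1.30 to 2.92 FPKM for 9 markers of normal lung epithelium, 0.555 to 1.34 FPKM for 6 leukocyte markers, 0.0160 to 0.0911 FPKM for 4 endothelial markers, and 6.23 to 19.8 FPKM for 6 fibroblast markers, almost all of it COL1A1.

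NFE2L1 (ENSG00000082641, chromosome 17, 48048329 to 48061487, plus strand, in the deposited table's coordinates) was lower in KO1. Its level was 109 and 189 FPKM in the control libraries and 27.0 and 35.8 FPKM in the KO1 libraries. Both KO1 libraries lay below both control libraries. On the log2(FPKM + 1) scale the difference was -2.17 (limma, SE 0.17, adjusted p = 0.000119), and it was -3.11 in vehicle and -1.71 in KO2 under bortezomib. Without the replicate block the adjusted p was 0.225. An antisense gene overlaps NFE2L1, and no source used here says whether the counting used strand.

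Of the 12194 genes, 1565 (12.8%) differed between KO1 and control under bortezomib at an adjusted p under 0.05, with 768 (6.3%) higher and 797 (6.54%) lower in KO1. The test was limma on log2(FPKM + 1) with the replicate as a block, adjusted by Benjamini and Hochberg over all genes. All differences below are on this scale, on which the change of a gene at a low level comes out too small. The median size of a called difference was 0.80, and 203 genes rose and 234 fell by at least 1. All 1565 moved the same way in both replicate pairs. In 1121 of them (71.6%) both KO1 libraries also lay outside the range of both control libraries, against 25.4% of all tested genes. The block carried most of these calls: without it 13 genes were called (5 higher and 8 lower), all of them among the 1565. Leaving out 1 of the 4 libraries left 444 (without KO1 replicate 2) to 567 calls (without KO1 replicate 1), and 309 genes (118 higher and 191 lower) were called in every such fit.

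**Figure D1:**
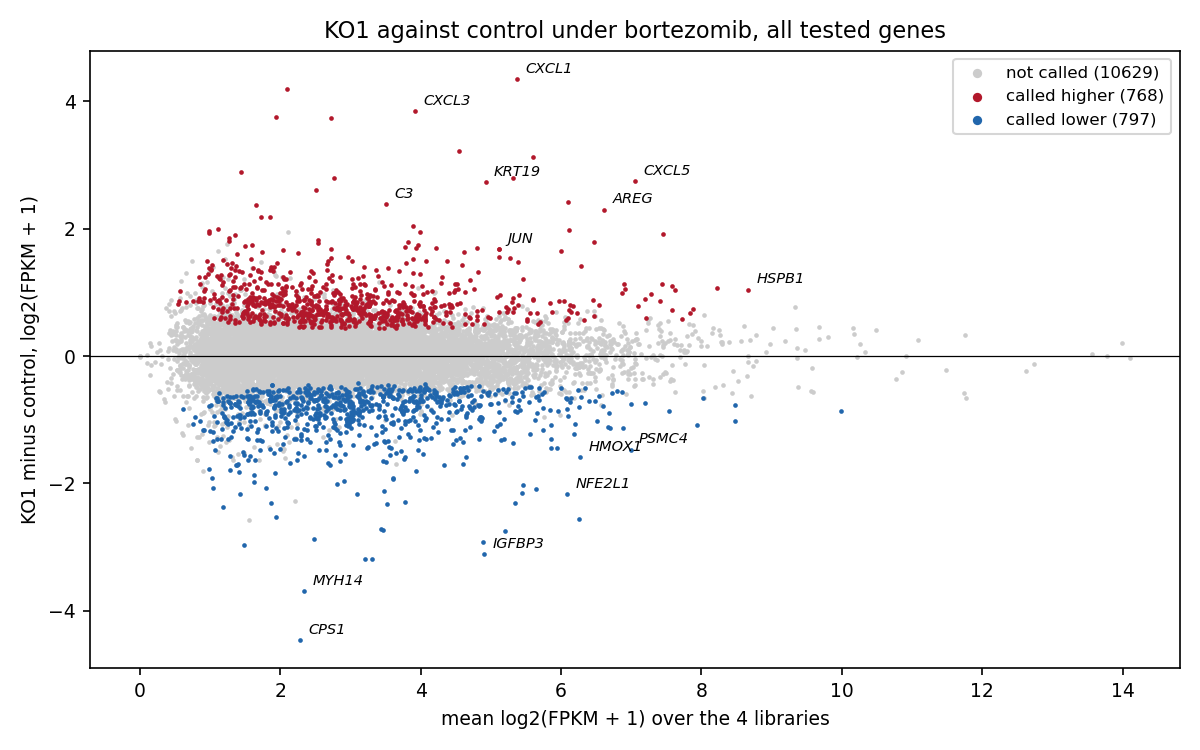
Each point is 1 of the 12194 tested genes, with its mean log2(FPKM + 1) over the 4 bortezomib libraries on the x axis and the KO1 minus control difference on the y axis. Red points are the 768 genes called higher and blue points the 797 called lower. CXCL1 is the highest point at 4.35 and CPS1 the lowest at -4.46.

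Many of these differences were also there without the drug. In vehicle 971 genes (7.96%) were called between the same lines, 473 higher (3.88%) and 498 lower (4.08%), in other libraries. Of the genes higher under bortezomib, 299 were also called higher in vehicle, which is 38.9% of the bortezomib list and 63.2% of the vehicle list. Of those lower, 280 were shared, or 35.1% and 56.2%. The genes called higher under bortezomib had a median difference of 0.79 there and 0.53 in vehicle, and those called lower had -0.80 and -0.44. A test of whether the KO1 difference itself changed with bortezomib called 0 of 12194 genes (0%) by limma, with 1190 at an unadjusted p under 0.05. Voom on the recovered reads called 35 in that test.

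The chromosome a gene lies on moved with its difference. This was looked at after the values were seen. Over the tested genes of each chromosome the median KO1 minus control difference under bortezomib was -0.30 on chromosome 2, -0.25 on chromosome 15, 0.39 on chromosome 12 and 0.56 on chromosome 18. The other 19 chromosomes with at least 20 tested genes lay between -0.09 and 0.13, beside 0.05 for all genes. Both replicate pairs showed these shifts, and vehicle did too, with medians of -0.36, -0.24, 0.37 and 0.47. In KO2 under bortezomib, which shares the control libraries, the medians were -0.21, -0.01, 0.35 and 0.09.

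The shifts were seen in stretches along these chromosomes, although only 3 stretches of chromosome 18 held enough genes. In stretches of 10 Mb with at least 20 tested genes, the medians were -0.42 to -0.19 in 19 stretches of chromosome 2, 0.29 to 0.54 in 11 of chromosome 12, 0.57 to 0.62 in 3 of chromosome 18, and -0.51 to 0.02 in 8 of chromosome 15. Chromosome 19 was split. Its tested genes up to 20 Mb had a median of 0.15, and those from 30 Mb on had -0.26, with 71 of 465 called lower. The start of chromosome X, up to 10 Mb, stood at 0.74 over 25 genes. Chromosomes 2, 12, 15 and 18 held 16.5% of the tested genes and 528 (33.7%) of the 1565 calls, and 10.2% of genes elsewhere were called. What sets these shifts was not tested. Each library was then centred on the median deviation of each 10 Mb stretch. Genes in stretches with under 20 tested genes were pooled by chromosome, or across chromosomes where these were still under 20. After this 1179 genes were called, 936 of them among the 1565 with the same sign. For a named gene, the adjusted p after this centring is given below where it ends the call.

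**Figure D2:**
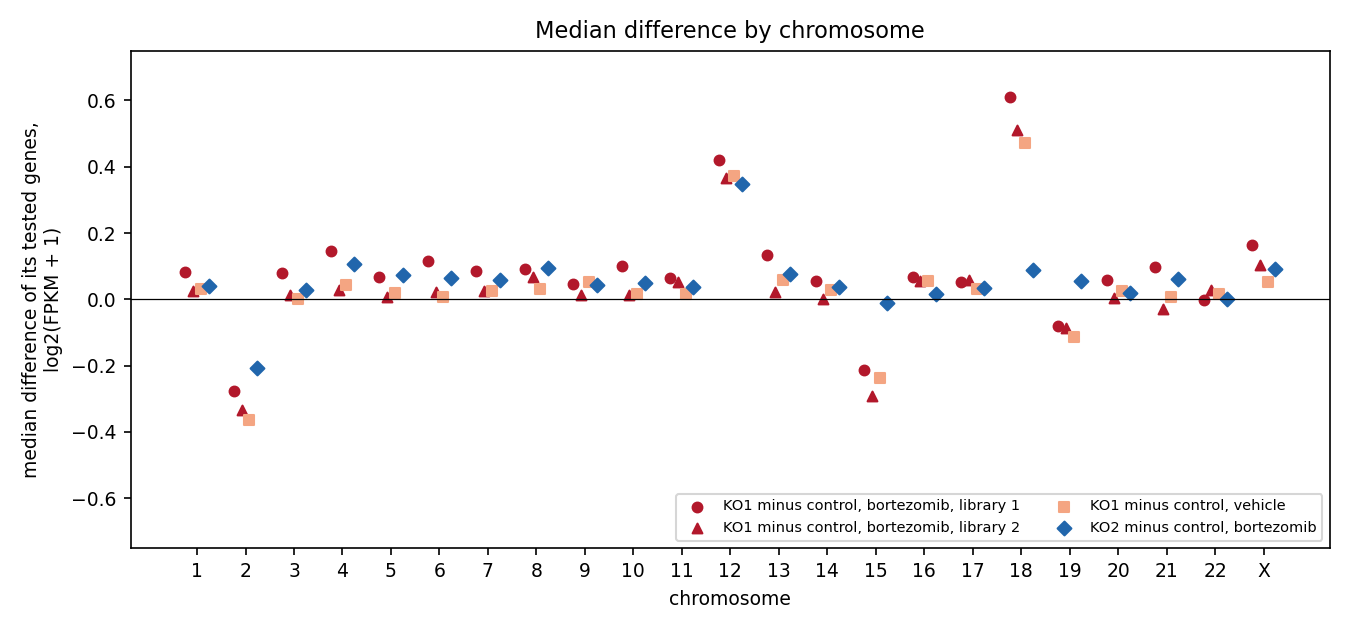
For each chromosome on the x axis, the y axis gives the median difference over its tested genes in log2(FPKM + 1). Circles and triangles are the 2 replicate pairs of KO1 minus control under bortezomib, squares KO1 minus control in vehicle, and diamonds KO2 minus control under bortezomib. Chromosomes 2 and 15 lie low and 12 and 18 high in KO1, and in KO2 chromosomes 15 and 18 stand at -0.01 and 0.09.

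Among the genes that rose most were neutrophil-attracting chemokines, small secreted proteins that act on the receptors CXCR1 and CXCR2. Their genes form a cluster on chromosome 4, which had no shift as a whole (median 0.09). The promoters of the 5 that rose are shown because the same 9 letters, GGAATTTCC, stand in each of them. This is a kappaB-type sequence, the kind that NF-kappaB factors bind, and it was searched for on both strands after the values were seen. Capitals mark the match. The sequences are from RefSeq on GRCh38.p14, 5′ to 3′ on the strand of the gene.
CXCL1, chr4:73869285-73869353, plus strand: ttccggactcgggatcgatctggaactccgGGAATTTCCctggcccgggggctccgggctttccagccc
CXCL2, chr4:74099234-74099302, minus strand: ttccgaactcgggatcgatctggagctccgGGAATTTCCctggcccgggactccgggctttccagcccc
CXCL3, chr4:74038729-74038797, minus strand: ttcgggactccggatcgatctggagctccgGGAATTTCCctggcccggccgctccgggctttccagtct
CXCL5, chr4:73998729-73998797, minus strand: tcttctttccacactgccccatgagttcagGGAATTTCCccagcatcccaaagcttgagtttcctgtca
CXCL8, chr4:73740448-73740516, plus strand: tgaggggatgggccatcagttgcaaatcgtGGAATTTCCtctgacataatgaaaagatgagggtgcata
The match begins 77 to 91 bases before the annotated start site. That all 5 promoters hold it follows from how the letters were chosen. The windows of CXCL1, CXCL2 and CXCL3 are also nearly alike, so they are not separate instances. Windows of 300 bases around the start held the match in 0.472% of all 27305 promoters in the table. It was in 1.41% of the 568 matched promoters of genes called higher, but in 0.533% of the 563 without these 5, beside 0.456% of those of tested genes. A match of letters is a description and not a binding site.

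CXCL1 stood at 4.33 and 14.8 FPKM in the control libraries and at 119 and 291 FPKM in the KO1 libraries (difference 4.35, SE 0.31, limma adjusted p = 7.57e-05). CXCL3 went from 2.15 and 4.02 to 52.8 and 59.8 FPKM (3.85, SE 0.27, limma adjusted p = 7.95e-05). CXCL2 stood at 11.3 and 20.7 against 105 and 192 FPKM (3.13, SE 0.21, limma adjusted p = 6.32e-05). In each of the 3 genes both KO1 libraries lay far above both control libraries. CXCL1, CXCL2 and CXCL3 are close paralogs, and how reads that fit several of them were counted is not given. CXCL8, or interleukin 8, was at 3.03 and 13.5 FPKM in control and at 34.3 and 142 FPKM in KO1 (3.21, SE 0.46, limma adjusted p = 0.00204). CXCL5 was at 34.7 and 73.2 against 327 and 361 FPKM (2.74, SE 0.38, limma adjusted p = 0.00196). Neither gene's groups overlapped.

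In vehicle the KO1 minus control difference was 1.45 for CXCL1, 1.06 for CXCL2 and 2.14 for CXCL5, all called, and 0.92 for CXCL3 and 1.41 for CXCL8, not called. The change of the difference with bortezomib was 2.90 for CXCL1, 2.93 for CXCL3 and 2.07 for CXCL2, each with a limma adjusted p of 0.0709, so none passed the threshold. With bortezomib CXCL1 moved by 1.14 in the control line and by 4.04 in KO1. Most of them were lower in KO2 than in KO1: under bortezomib KO1 minus KO2 was 3.22 for CXCL1 (limma adjusted p = 0.000898), 2.51 for CXCL2 (0.000459), 2.5 for CXCL3 (0.00236) and 2.26 for CXCL8 (0.0428), while CXCL5 missed the threshold (1.73, 0.0611).

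Around the chemokines, every tested gene in a stretch of 1.05 Mb was higher in KO1. From CXCL8 to BTC (chromosome 4, 73740506 to 74794686) all 8 tested genes were called higher. They are the 5 chemokines and EREG, AREG and BTC, which encode ligands of the EGF receptor. This stretch was chosen after its values were seen, with its ends set at called genes. Its count of 8 therefore cannot be weighed against the 6.3% of all genes. In vehicle 3 of the 8 were called. The tested neighbours on either side, ANKRD17 (-0.08, adjusted p = 0.723) and PARM1 (-0.25, adjusted p = 0.429), were not called.

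Of 20 tested genes of the NF-kappaB system, chemokines and cytokines, 9 rose and 0 fell, beside 6.3% and 6.54% of all genes, with a median of 0.58 beside 0.05. Leaving out 1 of the 4 libraries kept 5 or 6 of the 9 calls. Beyond the chemokines, CSF2, which encodes the growth factor GM-CSF, rose from 0.452 and 0.540 to 2.02 and 4.58 FPKM (1.46). The other members called were BIRC3 (0.86), an inhibitor of cell death that was not called after centring (0.75, adjusted p = 0.0885), LIF (0.76), a cytokine of the interleukin 6 family, and NFKBIZ (0.57), a nuclear member of the IkappaB family. The genes for the NF-kappaB proteins themselves were not called, with 0.27 for RELA, 0.16 for NFKB1 and -0.04 for NFKB2. The pathway's feedback genes NFKBIA (-0.32) and TNFAIP3 (-0.16) were not called either. In vehicle 3 members were higher and 1 was lower, beside 3.88% and 4.08% of all genes.

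**Figure D3:**
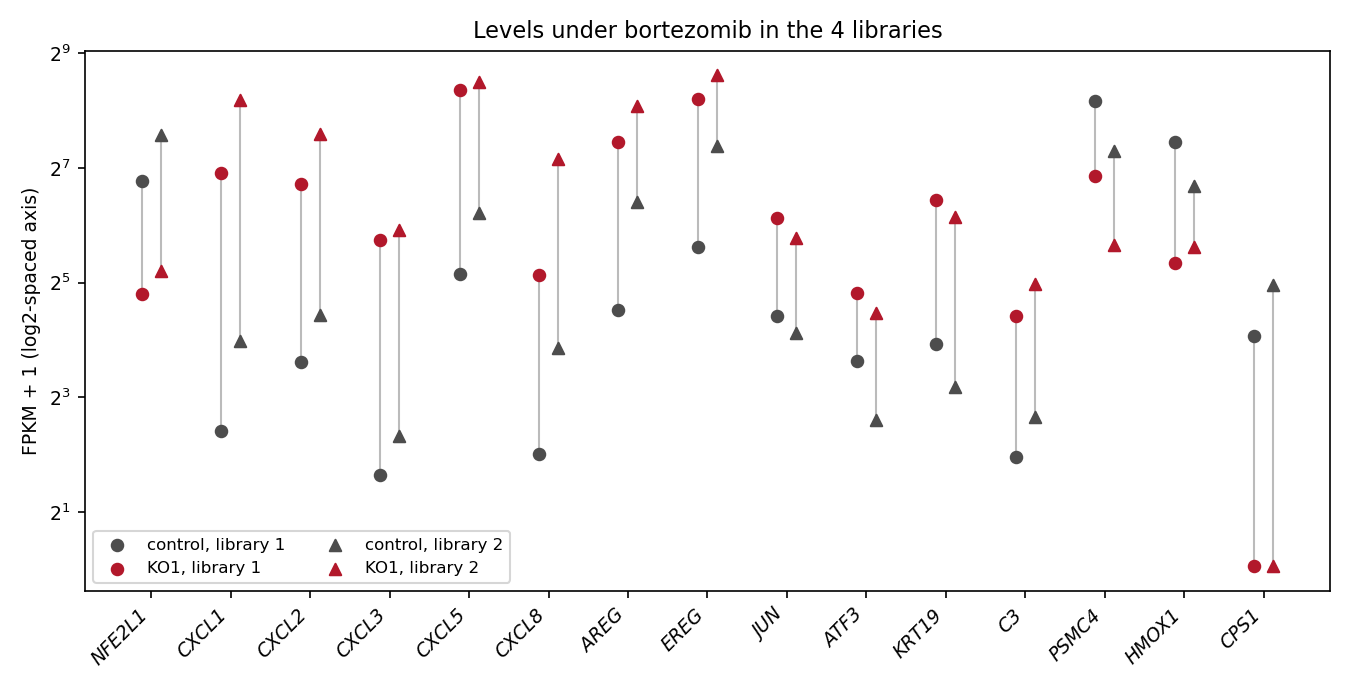
The y axis is FPKM + 1 on a log2-spaced axis and the x axis lists 15 genes named in the text. Grey symbols are control and red symbols KO1 under bortezomib, circles replicate 1 and triangles replicate 2, with a line joining each pair. For the 5 chemokines the red symbols lie above both grey ones, and for NFE2L1, PSMC4, HMOX1 and CPS1 they lie below both.

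Genes of EGF receptor signalling were higher in KO1 as well. Of 20 tested genes in a list of EGF receptor ligands and MAPK feedback, 11 rose and 0 fell (median 0.76), beside 6.3% and 6.54% of all genes. In all 11 the KO1 and control libraries did not overlap, as in 71.6% of all called genes. The ligand gene AREG, for amphiregulin, stood at 22.04 and 83.6 FPKM in control and at 174 and 269 FPKM in KO1 (2.30, SE 0.35, limma adjusted p = 0.00302). EREG, for epiregulin, stood at 48.2 and 165 against 295 and 392 FPKM (1.91, SE 0.32, limma adjusted p = 0.00506). TGFA (0.95) and BTC (0.89) rose too, HBEGF (0.14) and EGFR itself (0.54) were not called. After centring BTC was not called either (0.54, adjusted p = 0.177).

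The other genes of this list include phosphatases and inhibitors that MAPK signalling switches on against itself. DUSP8 went from 0.785 and 1.25 to 2.69 and 6.13 FPKM (1.35), and DUSP6 from 0.537 and 0.367 to 2.40 and 2.31 FPKM (1.21). DUSP4 (1.10), SPRY2 (0.92), ETV4 (0.76) and DUSP10 (0.75) rose as well. PHLDA1 (1.20), on chromosome 12, rose but was not called after centring (0.68, adjusted p = 0.0598). In vehicle 4 members were higher and 2 lower, beside 3.88% and 4.08% of all genes. In KO2 under bortezomib the list's median was 0.56. Leaving out 1 of the 4 libraries kept 4 to 6 of the 11 calls.

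Of 8 tested immediate early genes, of the AP-1 family and the IER genes, 3 rose and 0 fell, beside 6.3% and 6.54% of all genes. Without 1 of the 4 libraries 1 or 2 of them were still called. JUN, the core AP-1 subunit, was at 20.5 and 16.5 FPKM in control and at 69.2 and 54.1 FPKM in KO1 (1.68, SE 0.24, limma adjusted p = 0.00204). In vehicle its difference was 0.00, and the change with bortezomib was 1.68 (limma adjusted p = 0.161). IER3 (1.13), which centring took out of the calls (adjusted p = 0.0737), and JUND (1.04) also rose, while FOSL1 (0.61) and JUNB (-0.53) were not called.

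Among 26 tested genes of ATF4 and the integrated stress response, which answers amino acid shortage and misfolded protein, 5 rose and 2 fell. The list's median was -0.16, and of all genes 6.3% were called higher and 6.54% lower. ATF3, a repressor induced by ATF4, was at 11.4 and 5.11 FPKM in control and at 27.3 and 21.2 FPKM in KO1 (1.53, SE 0.19, limma adjusted p = 0.00117). GDF15, a secreted stress hormone, was at 38.4 and 57.2 against 95.8 and 166 FPKM (1.41, SE 0.19, limma adjusted p = 0.00146). In neither gene did the libraries overlap, and neither was called in vehicle, where GDF15 stood at 0.15. The change of the difference with bortezomib did not pass the threshold (1.53, adjusted p = 0.111 for ATF3 and 1.26, adjusted p = 0.167 for GDF15). DDIT3, which encodes the factor CHOP, rose by 1.23, but it lies on chromosome 12 and after centring stood at 0.78 (adjusted p = 0.137). SHMT2 (0.76), also on chromosome 12, was not called after centring either, and STC2 rose by 0.79. ATF4 itself was not called (0.12).

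The members that fell were VLDLR, a lipoprotein receptor, and SLC7A5, the large neutral amino acid transporter. VLDLR went from 7.23 and 12.3 to 2.94 and 4.58 FPKM (-1.16), and SLC7A5 from 1049 and 1778 to 563 and 1006 FPKM (-0.86). Both had nearly the same difference in vehicle (-1.14 and -0.90). Genes of the amino acid synthesis arm, such as ASNS (-0.26) and PSAT1 (-0.45), were not called.

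Proteasome subunit genes, the best known targets of NFE2L1, were lower in KO1. Of 33 genes of the 20S core and the 19S cap, 31 passed the level filter. PSMA2 and PSMA6, which other genes overlap on the same strand, did not. Under bortezomib 11 of the 31 were called lower and 0 higher, beside 6.54% and 6.3% of all genes. In all, 30 of the 31 differences were below 0, and their median was -0.49. The cap, which recognises and unfolds ubiquitinated proteins, had 10 of 19 called and a median of -0.66. The core, which cuts them, had 1 of 12 called (PSMA4) and a median of -0.42.

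PSMC4, an ATPase of the cap's base, had the largest difference. It stood at 285 and 156 FPKM in control and at 115 and 49.3 FPKM in KO1 (-1.47, SE 0.17, limma adjusted p = 0.000839), with no overlap. PSMA4, a core alpha subunit, stood at 55.2 and 27.6 against 28.7 and 13.4 FPKM (-0.96, SE 0.15, limma adjusted p = 0.00387). PSMD12, a cap lid subunit, stood at 80.8 and 37.8 against 44.9 and 19.5 FPKM (-0.88, SE 0.15, limma adjusted p = 0.0061). For PSMA4 and PSMD12 the groups overlapped: replicate 1 of KO1 lay above replicate 2 of control, and the difference was seen within each replicate. In only 3 of the 11 called subunits, PSMC4, PSMD6 and PSMC6, did the libraries not overlap.

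The other called cap subunits were PSMD8 (-0.94), PSMD1 (-0.90), PSMD6 (-0.84), the deubiquitinase PSMD14 (-0.84), PSMD13 (-0.78), PSMC6 (-0.76), PSMC3 (-0.67) and PSMD11 (-0.49). PSMD7 had the highest value (0.03). The core's catalytic subunits PSMB5 (-0.40), PSMB6 (-0.56) and PSMB7 (-0.12) were not called, and PSMB5 is the one bortezomib binds. PSMC4 and PSMD8 lie on chromosome 19 beyond 30 Mb, PSMD1 and PSMD14 on chromosome 2, and PSMA4 on chromosome 15. After centring 10 of the 31 were called, all lower, and all 31 differences were below 0 with a median of -0.51. PSMD8 (-0.53, adjusted p = 0.0627) and PSMD1 (-0.58, adjusted p = 0.149) were then no longer called, and the core's PSMB6 was (-0.63, adjusted p = 0.0365). Without the replicate block limma called 0 of the 31, while 18 were under 0.05 before adjustment in the blocked fit, and leaving out 1 of the 4 libraries left 3 to 6.

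**Figure D4:**
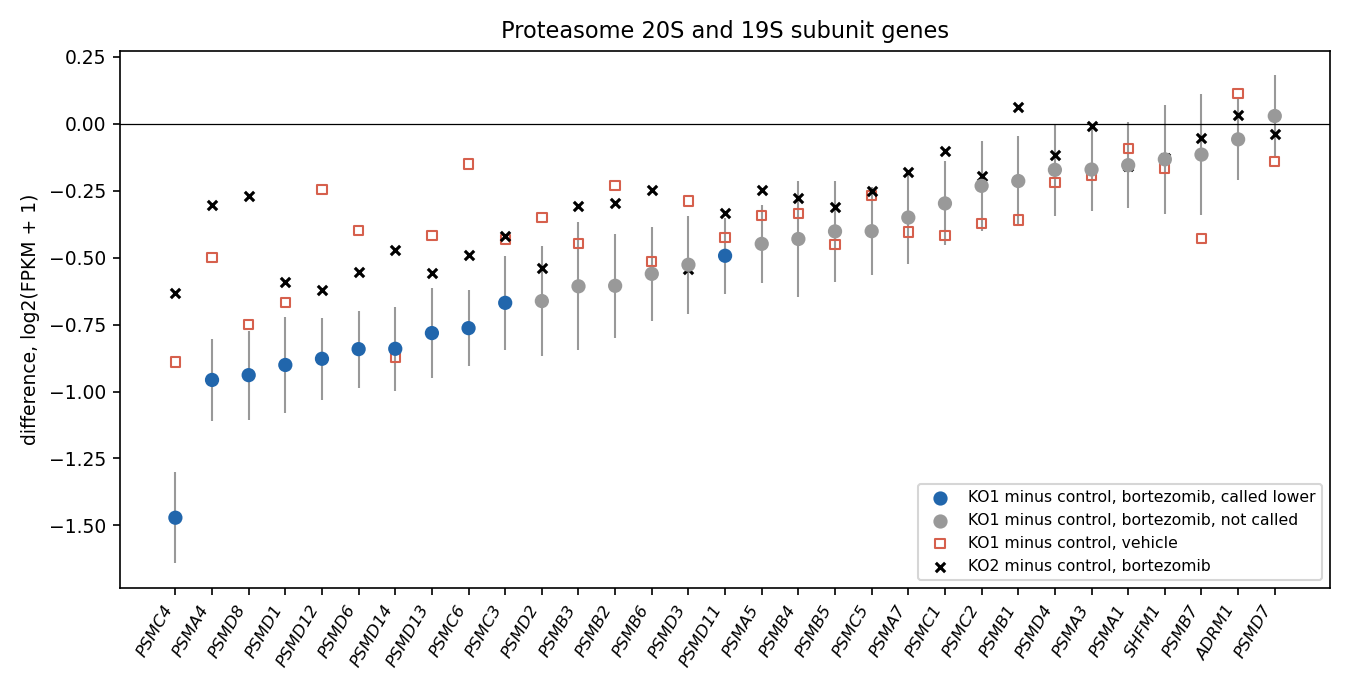
The 31 tested subunit genes are on the x axis and the difference in log2(FPKM + 1) is on the y axis. Filled circles with bars (the SE) are KO1 minus control under bortezomib, blue where called lower, open squares the same lines in vehicle, and crosses KO2 minus control under bortezomib. PSMC4 lies lowest at -1.47 and PSMD7 highest at 0.03.

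The drug raised these genes in both lines. In the control line 20 of the 31 were called higher with bortezomib than with vehicle (16.1% of all genes were) and the median was 0.68. In KO1 15 were (14.1% of all genes) and the median was 0.51. PSMC4 moved by 1.43 in control and by 0.85 in KO1. In vehicle the KO1 minus control median was -0.37, with 3 called lower (4.08% of all genes were). The change of the difference with bortezomib had a median of -0.11 over the 31 and called 0 of them by limma, with 3 at an unadjusted p under 0.05. In KO2, against the same control libraries, the median under bortezomib was -0.28. KO1 minus KO2 called 1 of 31, PSMC4 (-0.84, adjusted p = 0.0442), beside 1.48% of all genes.

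The antioxidant response element core, TGACNNNGC, was searched for on both strands of the RefSeq promoters. It was in 6 of the 28 subunit promoters that matched by symbol (21.4%) and in 13.6% of all promoters. Its share was 15.3% in the promoters of tested genes, 12.5% in those called higher and 17.5% in those called lower. Of the 6, PSMC4 and PSMD1 held it only after the start site. The others are shown, because they place the element beside the subunit's own value, with the match in capitals.
PSMD12, chr17:67366704-67366772, minus strand: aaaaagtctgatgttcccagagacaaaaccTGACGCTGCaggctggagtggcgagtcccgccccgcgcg
PSMB3, chr17:38752607-38752675, plus strand: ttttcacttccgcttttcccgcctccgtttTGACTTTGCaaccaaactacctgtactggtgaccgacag
PSMD3, chr17:39980740-39980806, plus strand: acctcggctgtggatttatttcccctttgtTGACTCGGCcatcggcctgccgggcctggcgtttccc
ADRM1, chr20:62302729-62302797, plus strand: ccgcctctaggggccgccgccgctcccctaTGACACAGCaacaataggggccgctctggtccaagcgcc
The differences of these genes under bortezomib ranged widely. PSMD12 fell by 0.88, while PSMB3 (-0.61), PSMD3 (-0.53) and ADRM1 (-0.06) were not called.

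Partners of the proteasome went both ways. Of 14 tested assembly factors, activators and bound deubiquitinases, 1 fell and 2 rose (median 0.12), beside 6.54% and 6.3% of all genes. PSME4, the PA200 activator, went from 24.0 and 16.0 to 13.3 and 6.89 FPKM (-0.96, SE 0.13, limma adjusted p = 0.00196). PSMG2, an assembly chaperone on chromosome 18, rose by 0.84 and was not called after centring (0.35, adjusted p = 0.0771). PSME2, a subunit of the interferon-inducible PA28 activator, rose by 0.57. The immunoproteasome subunit PSMB8 went from 3.97 and 2.65 to 10.0 and 6.87 FPKM (1.13), the 1 of 3 such subunits that was called. PSMB8-AS1 and PSMB9 overlap it on the opposite strand. UBB (0.57) and RPS27A (-0.17), which encode ubiquitin precursors, were not called.

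Of 14 tested factors that process NFE2L1, 2 fell and 0 rose (median 0.01), near the 12.8% called of all genes. The pair that fell, NPLOC4 and UFD1, forms the cofactor that guides VCP to its substrates. NPLOC4 was at 92.6 and 87.3 FPKM in control and at 53.3 and 46.8 FPKM in KO1 (-0.84, SE 0.15, limma adjusted p = 0.00616). UFD1, listed under its older symbol UFD1L, was at 10.5 and 9.33 against 5.71 and 4.57 FPKM (-0.84, SE 0.17, limma adjusted p = 0.0132). For each gene the KO1 libraries were the lower ones without overlap, and the vehicle differences were -0.09 and -0.06. The change with bortezomib did not pass the threshold for either (-0.75, adjusted p = 0.263, and -0.78, adjusted p = 0.343). Without control replicate 1 limma called 1 of the pair, and without any other of the 4 libraries 0. The other 12 tested factors were not called, VCP (-0.24), NGLY1 (-0.32) and DDI2 (0.24) among them. Of the CNC and small MAF factors only MAFF rose (0.76) besides the fall of NFE2L1 among the 8 tested. NFE2L2, which encodes the related factor NRF2, was at -0.32 and NFE2L3 at 0.23, neither called.

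NRF2 target genes, which protect against oxidants and share the antioxidant response element, had 5 of 24 called lower and 0 higher (median -0.26). Of all genes 6.54% were called lower and 6.3% higher. HMOX1, which breaks down haem, stood at 174 and 102 FPKM in control and at 39.4 and 48.4 FPKM in KO1 (-1.59, SE 0.37, limma adjusted p = 0.0205). The aldo-keto reductases AKR1C1 (-1.71), AKR1C3 (-1.23) and AKR1C2 (-1.11) fell as well, and AKR1C2 was not called after centring (adjusted p = 0.0596). These 3 are close paralogs whose gene models overlap on chromosome 10, so reads may have been split between them. ME1, or malic enzyme, fell by 0.57. NQO1 (-0.07), GCLM (0.12) and TXNRD1 (0.50) were not called.

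In KO1 these genes were lower in vehicle too, with 5 called lower (4.08% of all genes were) and a median of -0.44. In KO2 under bortezomib HMOX1 stood at -1.41 against control, but AKR1C1 at -0.41, AKR1C3 at 0.42 and AKR1C2 at 0.03. The difference between KO1 and KO2 was called for AKR1C3 (-1.65, limma adjusted p = 0.00994) and not for AKR1C1 (-1.31, 0.115) or AKR1C2 (-1.14, 0.0887). Without replicate 1 of either group 0 of the 24 NRF2 targets were called, and without replicate 2 of KO1 4 were.

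Of 22 tested ferroptosis genes 3 rose and 1 fell (median -0.09), near the 12.8% called of all genes, and 0 or 1 of the 3 rises was still called by limma without 1 library. Those that rose were PTGS2 (0.95), the inducible cyclooxygenase, ACSL4 (0.60), which loads polyunsaturated fatty acids onto coenzyme A, and LPCAT3 (0.57), which places them in phospholipids. LPCAT3 lies on chromosome 12 and was not called after centring (adjusted p = 0.288). HMOX1 was the member that fell.

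**Figure D5:**
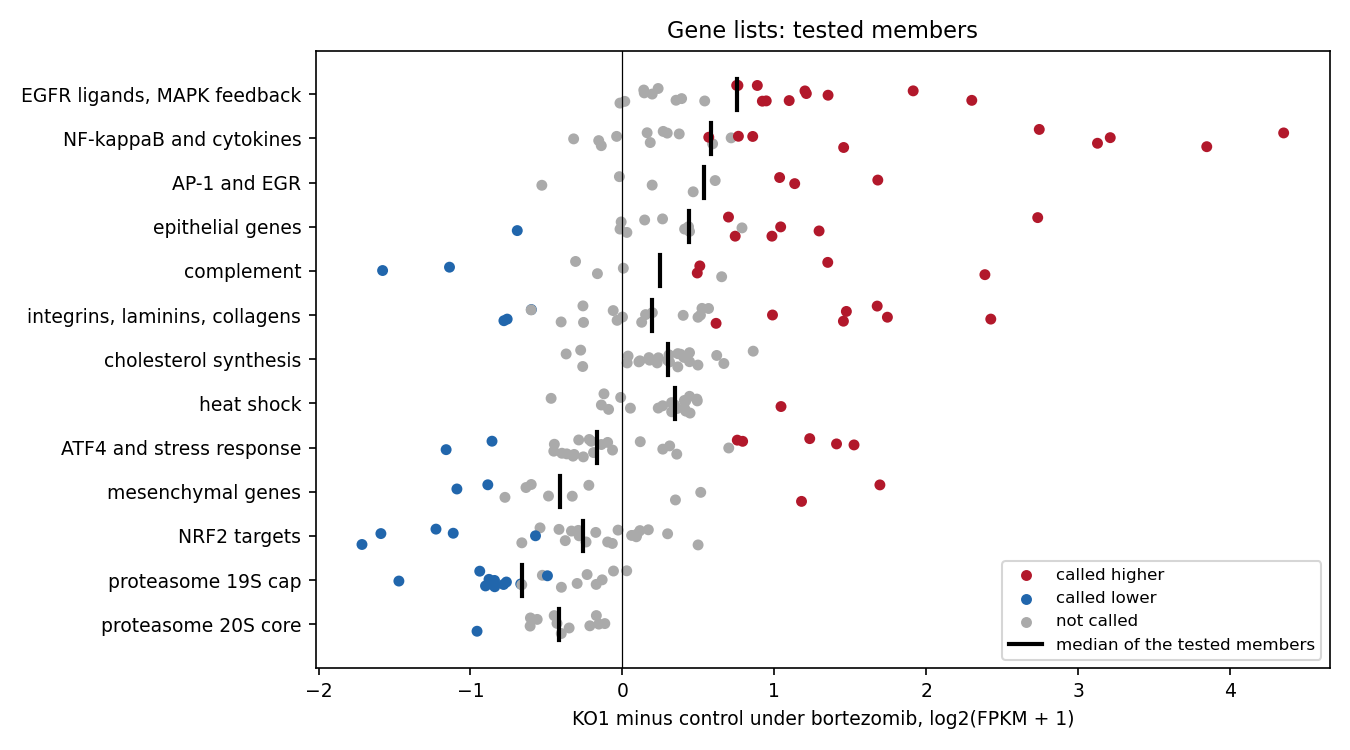
Each row is a gene list, each point a tested member placed on the x axis by its KO1 minus control difference under bortezomib in log2(FPKM + 1), with random vertical spread. Red points were called higher, blue ones lower, and black bars are the lists' medians. The chemokines reach furthest to the right, up to 4.35, and both proteasome lists lie almost wholly to the left of 0.

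Heat shock chaperones, the genes bortezomib is best known to induce, were mostly not called between KO1 and control. The drug raised them in both lines. With bortezomib against vehicle 19 of 21 were called higher in control (median 1.61), beside 16.1% of all genes. In KO1 21 of 21 were (median 1.83), beside 14.1% of all genes. The counts that follow are for KO1 against control under bortezomib. Of 21 tested members 1 rose, HSPB1, beside 6.3% of all genes, and 16 differences were above 0 (median 0.34). HSPB1, the small chaperone HSP27, stood at 571 and 139 FPKM in control and at 891 and 382 FPKM in KO1 (1.04, SE 0.22, limma adjusted p = 0.0146). Its groups overlapped because replicate 2 was lower in both lines. HSPA1A (0.45), DNAJB1 (0.49), HSPH1 (0.49) and BAG3 (0.36) were not called. In KO2 under bortezomib the list's median was 0.38.

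Genes of epithelial and mesenchymal character both moved. Of 16 tested epithelial genes 6 rose and 1 fell (median 0.44), beside 6.3% and 6.54% of all genes, and 2 to 4 of the 6 rises were still called without 1 of the libraries. KRT19, a keratin of simple epithelia, was at 14.2 and 8.12 FPKM in control and at 85.7 and 69.8 FPKM in KO1 (2.73, SE 0.22, limma adjusted p = 0.000139). Its difference was 2.81 in vehicle and 2.75 in KO2. KRT80 (1.30), OCLN (0.98), which encodes the tight junction protein occludin, and DSP (0.70), which encodes desmoplakin, rose. DSP was at the threshold after centring (adjusted p = 0.0502).

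KRT18 (1.04) and KRT8 (0.74) also rose, but both lie with KRT80 on chromosome 12, and after centring their adjusted p-values were 0.0528 and 0.392. KRT8 and KRT18 overlap on opposite strands. TJP1, the scaffold protein ZO-1, fell by 0.69 and lies on chromosome 15, and after centring its difference was -0.06. CDH1, which encodes E-cadherin, was not called (0.41).

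Of 12 tested mesenchymal genes 2 rose and 2 fell (median -0.41), beside 6.3% and 6.54% of all genes. CDH2, which encodes N-cadherin, went from 8.23 and 6.88 to 27.9 and 25.4 FPKM (1.70, SE 0.18, limma adjusted p = 0.000507). It lies on chromosome 18 and was still called after centring (1.09, limma adjusted p = 0.00722). TWIST1, a transcription factor of mesenchymal cells, rose by 1.18. TGFBI, a matrix protein induced by TGF-beta, went from 380 and 335 to 146 and 191 FPKM (-1.09). FN1, for fibronectin, fell by 0.89 in KO1, lies on chromosome 2, was not called after centring (-0.44, adjusted p = 0.306), and stood at 0.87 in KO2. VIM (0.35) was not called.

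Among 25 tested integrins, laminins and collagens 7 rose and 3 fell (median 0.20), beside 6.3% and 6.54% of all genes. LAMB3, a laminin chain of the epithelial basement membrane, stood at 18.3 and 18.6 FPKM in control and at 51.3 and 73.0 FPKM in KO1 (1.68, SE 0.24, limma adjusted p = 0.00204). The 2 groups of libraries did not overlap. LAMA3, another laminin chain, went the other way: it fell by 0.76, although it lies on chromosome 18.

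Leaving out any 1 of the 4 libraries left 5 or 6 of the 7 members that rose and 0 of the 3 that fell. The basement membrane collagens COL4A6 (1.74) and COL4A5 (1.46), neighbours on chromosome X, and the integrins ITGA2 (1.47), ITGB4 (0.99) and ITGA5 (0.62) rose. ITGA5, on chromosome 12, was not called after centring (0.16, adjusted p = 0.595). ITGAV (-0.78, chromosome 2) and ITGB5 (-0.60) fell, and after centring their adjusted p-values were 0.0831 and 0.0618. In vehicle 7 members were higher and 2 lower, beside 3.88% and 4.08% of all genes.

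Complement genes moved both ways. Of 10 tested, 4 rose and 2 fell, beside 6.3% and 6.54% of all genes. Without any 1 of the 4 libraries 1 of the rises and both falls were still called. C3, the central component, went from 2.89 and 5.29 to 20.4 and 30.3 FPKM (2.39, SE 0.19, limma adjusted p = 0.000116). C1S, a protease of the classical pathway, went from 33.4 and 53.5 to 9.96 and 18.2 FPKM (-1.58, SE 0.17, limma adjusted p = 0.000507), and its partner C1R fell by 1.14. Both proteases lie on chromosome 12, where the median was above 0. C3 stood at 0.03 in KO2 and differed between KO1 and KO2 by 2.36 (limma adjusted p = 0.000344), while C1S stood at -2.01 there. CD55 (0.51), which restrains complement at the cell surface, and C5 (0.49) rose, and C5 was not called after centring (adjusted p = 0.148).

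Several of the largest changes fell outside the lists described so far. CPS1, the mitochondrial enzyme that opens the urea cycle and is highly expressed in some lung carcinomas, went from 15.8 and 30.1 to 0.0435 and 0.0355 FPKM (-4.46, SE 0.27, limma adjusted p = 3.43e-05). It was among the 13 genes called without the block, and its difference was -5.72 in vehicle and -4.15 in KO2. MYH14, a nonmuscle myosin heavy chain, went from 22.1 and 13.4 to 0.543 and 0.289 FPKM (-3.69, SE 0.18, limma adjusted p = 2.2e-05). IGFBP3, which binds insulin-like growth factors, went from 68.7 and 109 to 5.68 and 14.5 FPKM (-3.11).

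In these 3 genes both KO1 libraries lay far below both control libraries. Falls of over 2.5 were also seen in GPX3 (-2.72), a secreted selenium-containing peroxidase, NRCAM (-2.75), a neural adhesion molecule, NPTX1 (-2.92), IGFBP7 (-2.73) and SRGN (-2.55), which encodes the proteoglycan serglycin. CYP4F11 (-3.18), a cytochrome P450, and the neighbouring pseudogene AC005336.4 (-2.87) fell together. CPLX2, a complexin of vesicle release, fell by 3.19 in KO1 and stood at 0.77 in KO2. A small RNA gene named U8, at chromosome 10, 5004710 to 5004842, was at 4.81 and 9.58 FPKM in control and listed at 0 in both KO1 libraries. It lies within AKR1C1 and AKR1C2, and reads of those genes may have been counted for it.

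Most of the genes with the largest rises outside the lists were low or silent in control. MAGEA6, a cancer-testis antigen with a near-identical copy in MAGEA3, was listed at 0 in both control libraries and stood at 23.3 and 12.7 FPKM in KO1 (limma adjusted p = 8.67e-05). LINC01468 went from 0 and 0.0902 to 14.7 and 11.7 FPKM, DPYSL3 from 0.953 and 0.682 to 33.3 and 15.9 FPKM, and G0S2, an inhibitor of the lipase ATGL, from 2.54 and 0.858 to 19.1 and 14.9 FPKM. CNTN1, a contactin of neural cells on chromosome 12, went from 7.91 and 24.8 to 76.1 and 143 FPKM (2.80). A short U6-type RNA gene, RNU6-247P, was listed at 0 in control and at 4.24 and 9.41 FPKM in KO1. All of these but RNU6-247P, which stood at 1.24 (adjusted p = 0.0859), were also called in vehicle.

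Genes whose KO1 difference on the log2(FPKM + 1) scale changed most with the drug were chosen after the values were seen. None passed the threshold. MYH14 had the lowest p-value. In the control line it stood at 2.45 and 1.62 FPKM in vehicle and at 22.1 and 13.4 FPKM with bortezomib, and in KO1 at 0.08 and 0.0109 and then at 0.543 and 0.289 FPKM. The difference between lines was -1.53 in vehicle and -3.69 with bortezomib (change -2.17, SE 0.26, limma adjusted p = 0.0626). All KO1 levels were below 1 FPKM, where this scale makes differences too small, and more so in vehicle. The size of this change therefore rests on the scale, and it does not show that the ratio between the lines changed.

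DUSP1, a MAPK phosphatase, did the reverse. In vehicle it was at 103 and 61.0 FPKM in control and at 26.7 and 12.7 FPKM in KO1. With bortezomib it was at 194 and 124 against 191 and 122 FPKM. Its difference was thus -2.04 in vehicle and -0.02 with bortezomib (change 2.03, limma adjusted p = 0.0626). KIF1B, a kinesin motor, had a change of -1.45 (limma adjusted p = 0.0709): bortezomib raised it by 1.44 in control and moved it by -0.01 in KO1.

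Other lists had calls in both directions, in 1 direction or none. Of all genes 12.8% were called, 6.3% higher and 6.54% lower. The counts of the endoplasmic reticulum, p53 and BCL2 lists were near or below that share. Of 16 endoplasmic reticulum chaperones and unfolded protein response genes MANF (0.63) and ERN1 (0.56) rose, and MANF was not called after centring (adjusted p = 0.0833). Of 18 p53 targets XPC (0.49) rose and TP53I3 (-0.88) fell, and neither was called after centring (adjusted p = 0.0839 and 0.127). Of 9 tested urea cycle genes CPS1 and ASS1 (-0.63) fell, and of 3 tested metallothionein and zinc exporter genes SLC30A1 (-0.57) fell, and it was not called after centring (adjusted p = 0.0612). Without any 1 of the 4 libraries limma made none of the calls named here for the endoplasmic reticulum, p53 and zinc lists, and made 1 of the 2 in the urea cycle. Of 24 cholesterol synthesis genes 0 were called under bortezomib by limma (median 0.30), with 8 at an unadjusted p under 0.05 and 3 called by voom, while in vehicle 5 were higher and 1 lower. Of 23 DNA replication and mitosis genes 2 rose, the mitotic genes CDC20 (1.0) and PLK1 (0.98), and 4 fell, among them MCM6 (-1.02) and RRM2 (-0.98), both on chromosome 2, and RRM2 was not called after centring (adjusted p = 0.0626). Of 13 YAP-TEAD targets ANKRD1 rose (1.17) and CTGF (-1.30), CRIM1 (-0.80) and TEAD1 (-0.56) fell, and CRIM1, on chromosome 2, was not called after centring (adjusted p = 0.161). In these last 2 lists the rises were called in none of the 4 fits without 1 library, and 1 to 3 of the 4 falls and 0 to 2 of the 3 falls were. PMAIP1, which encodes the death-promoting protein NOXA, rose by 1.43 as the 1 of 13 BCL2 family genes called. It lies on chromosome 18 and was still called after centring (limma adjusted p = 0.00659). Of 10 autophagy receptor and ATG8 genes WIPI1 (0.78) rose and GABARAPL1 fell. GABARAPL1 fell by 1.03 despite lying on chromosome 12. Of 13 mitochondrially encoded protein genes 0 were called by limma or voom, with 1 at an unadjusted p under 0.05, at values from -0.58 (MT-ND1) to 0.33 (MT-CYB).

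The KO lines differed directly under bortezomib in 180 genes (1.48%), 76 higher and 104 lower in KO1. Of the genes called higher in KO1 than in control 56 were also higher in KO1 than in KO2, and of those called lower 64 were lower. These counts share the KO1 libraries. Among the largest differences were those of the carboxylesterase CES1, at 0 and 0.216 FPKM in KO1 and 16.0 and 33.8 FPKM in KO2 (-4.46), CPLX2 (-3.97), SPARC (-3.27), a matrix protein, and CEACAM6 (-2.95), an adhesion molecule. In the other direction G0S2 (2.99) and MAGEA6 (2.90) followed CXCL1. Against control, the KO1 libraries had -0.52 for CES1 and -0.22 for SPARC, neither called.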

How the data were processed

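The deposited table gives FPKM per gene for 12 libraries, computed by the authors. The submitters' processing notes name CASAVA, STAR 2.5, HTSeq 0.6.1, DESeq2 and hg19 without their roles, but the deposited positions matched a GRCh38 annotation for 95.2% of gene IDs. The strand setting and annotation are not given in the sources used here. All values were whole multiples of 1 read, which gave the read totals.

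Levels were taken as log2(FPKM + 1) for the 12194 genes (20.8%) with a mean of at least 1 FPKM, and fitted with limma 3.58.1 in R 4.3.3 (group means over 12 libraries, replicate as a block, eBayes with trend, 5 residual degrees of freedom). Calls had an adjusted p under 0.05. Replicate R1 of the KO lines was paired with the unnumbered control libraries and R2 with R2. Libraries paired in this way deviated together, with correlations of 0.696 to 0.89 over 15 pairs of groups and 0.827 for control and KO1 under bortezomib. Replicate numbers do not by themselves say what the libraries shared.

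The genes and lists were chosen with earlier results of these data known. Named genes were NFE2L1, 12 called genes in each direction by size of difference, with KO1 and control libraries that did not overlap, up to 4 called members of each list in each direction (or its highest and lowest member), and up to 6 called genes in each direction of the interaction and of KO1 minus KO2. Further called members, members that were not called, and the stretches and chromosomes were chosen after their values were seen, and the kappaB-type search and the centring by 10 Mb stretch were added after seeing the data. The fit was also run on data simulated with an additive replicate effect, a setting that cannot show whether the block suits these data. Promoters were RefSeq sequences on GRCh38.p14, matched by symbol. Alternatives were another pseudocount, no filter, other scalings, other blocks, voom on the recovered reads and leaving out each library. Some members of the lists are counted but not reported by name here.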

Additional observations from a re-analysis of the deposited data

How the results depend on the processing

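The number of genes called between KO1 and control under bortezomib depended most on the replicate block. The largest count, 2322, came from a fit on only the 4 libraries compared, with the block. Fits on 4 libraries alone leave too few residual degrees of freedom to judge a gene's spread from those libraries. Their counts are therefore not firmer than those of the main fit. Against 1565 calls, there were 13 without the block, 920 with the block set by the title suffix alone, 876 without the level filter and 444 to 567 without 1 library, while the rescaled, quantile, mitochondrial and voom alternatives gave 1367 to 1936. In vehicle, against 971, there were 26 without the block, 474 without the filter, 626 after centring, 1492 by voom and 445 to 853 without 1 library. Leaving out mitochondrial genes moved the vehicle split from 473 higher and 498 lower to 596 and 418. The interaction, with 0 calls by limma, had 1 without the filter, 1 after quantile normalization, 5 with the suffix block, 35 by voom and 0 to 15 without 1 library. KO1 minus KO2, with 180, had 5 without the block, 100 without the filter, 440 by voom, 777 from its own 4 libraries alone and 43 to 46 without 1 library. Where a library was left out, the lone sample of its group was assumed to vary like the other groups.

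Of 101 named differences, 100 of them called, 9 kept their direction and side of the threshold without the block, 62 without the filter, 77 with the suffix block, 80 after centring, 55 to 59 without 1 library, and 101 by voom. Some values changed sign, and not all of them were near 0. RPS27A (-0.17) became 0.0830 after centring and ranged from -0.559 to 0.222 without 1 library, CD14 (0.11) from -0.0201 to 0.233, and COL1A1 (0.52) from -0.0470 to 1.10. The median of the NFE2L1 processing genes (0.01) became -0.139 after centring, -0.0028 with quantile normalization, -0.0249 with the suffix block and -0.0015 after rescaling, and ranged from -0.0842 to 0.00888 without 1 library. That of p53 targets (0.04) became -0.115 after centring and ranged from -0.0848 to 0.0551. That of the urea cycle (-0.12) became 0.0398 after centring and 0.0052 with the suffix block and ranged from -0.188 to 0.0464. That of replication genes (0.03) became -0.0162 with quantile normalization and -0.0836 with the suffix block and ranged from -0.135 to 0.280. Without 1 library the medians of YAP targets (0.09), immunoproteasome subunits (0.22) and CNC and small MAF genes (-0.13) ranged from -0.0366 to 0.208, from -0.0540 to 0.487 and from -0.253 to 0.00028. That of ATF4 genes (-0.16) became 0.0146 with the suffix block. That of mitochondrially encoded protein genes (-0.05) became 0.0655 after centring and 0.134 with the suffix block. It ranged from -0.171 to 0.0569 without 1 library. The cause was not tested.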
